A study of Mus musculus with 32 samples.

Results

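The genes of programmed cell death and of autophagy were followed here in the eye, brain and heart of sighted C3H mice. Members were all array probes whose gene symbol is a caspase (Casp and a digit), starts with Bcl2, or is Birc or Atg with a digit. Bak1, Bad, Bid, Bok, Mcl1, Apaf1, Diablo, Aifm1, Becn1, Sqstm1, Fas and Fadd were taken by name, as was Bax, which no probe matched. This gave 73 of 20794 probes and 39 of 9030 named genes, of which 24 had more than 1 probe, with at most 5. The members were chosen by symbol, with earlier results of these data known.

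The study compared RNA of sighted C3H mice with RNA of control C3H males that the labels write as C3H.pde6b-, a form of the rod phosphodiesterase gene with which rods are lost early in life. The design text names the animals studied as 6 males of the C3H seh mutant line, so both groups share the C3H background. Each of 32 arrays with 2 colours, 12 of eye, 12 of brain and 8 of heart, held 1 sighted sample and a pool from 6 control males of the same organ. The pools of brain and heart came from the same mice, and the eye pool from other mice. Ages were not stated in the labels, and no probe was named Pde6b.

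The measure throughout is the log2 ratio, sighted over control, so a positive value is higher in the sighted sample. Neighbouring arrays, with the dyes exchanged, were averaged into a replicate, which left 6 replicates of eye, 6 of brain and 4 of heart. Nothing in the labels ties arrays to single animals. The p-values therefore set the mean ratio against the scatter of these samples, part of which can be technical. The pooled control adds no scatter of its own. Variation between control mice was thus not sampled, and the calls hold against the pool of each organ. The direction of the ratio is likely and was not stated. It was read from 10 rod genes on the eye arrays, whose median was 4.39 to 5.14 on arrays that carried the sighted RNA in Cy5 and -4.09 to -3.73 on those that carried it in Cy3. Missing values made up 1.62 to 5.10% of an eye array, 1.01 to 5.05% of a brain array and 5.96 to 61.58% of a heart array. The number of arrays limits the precision.

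Apoptosis runs along a mitochondrial and a death receptor route. On the mitochondrial route, Bcl2 family proteins control how permeable the outer membrane is, and so the release of proteins from the space behind it. Released cytochrome c then builds the apoptosome on Apaf1, which activates caspase 9 and through it the executioner caspases. On the other route, receptors such as Fas recruit Fadd and an initiator caspase. Autophagy encloses cytoplasm in a double membrane that fuses with the lysosome. Its Atg proteins start the membrane, supply lipid, and conjugate the Atg8 family to it. Photoreceptors renew their outer segments daily and carry much autophagy, and in mice without rod phosphodiesterase the rods die early.

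In the eye, autophagy genes stood on both sides and every apoptosis member past the test was lower in sighted mice. Of 38 members measured in the eye, 12 passed limma's test at an adjusted p of 0.05, 4 higher and 8 lower. That is 31.6% of the members, against 26.8% of all 15874 genes tested in the eye, where 15.9% were higher and 11% lower. The share among members thus lay near the background of the whole array. Of 24 apoptosis members measured, 7 were lower and 0 higher, 29.2% in all. Of 14 autophagy members measured, 4 were higher and 1 was lower, 35.7% in all. Both shares stand beside the 26.8% of all genes, and their difference from it was not tested. Apoptosis genes outside the symbol rule went both ways, 9 higher and 6 lower. The median over the apoptosis members was -0.13, over the autophagy members 0.07 and over all genes 0.03. The changes were small beside those of rod genes. The largest rise among the members was that of Atg16l1, 1.504-fold, and the largest fall that of Casp1, 1.84-fold. Both genes rest on 1 probe each.

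**Figure D1:**
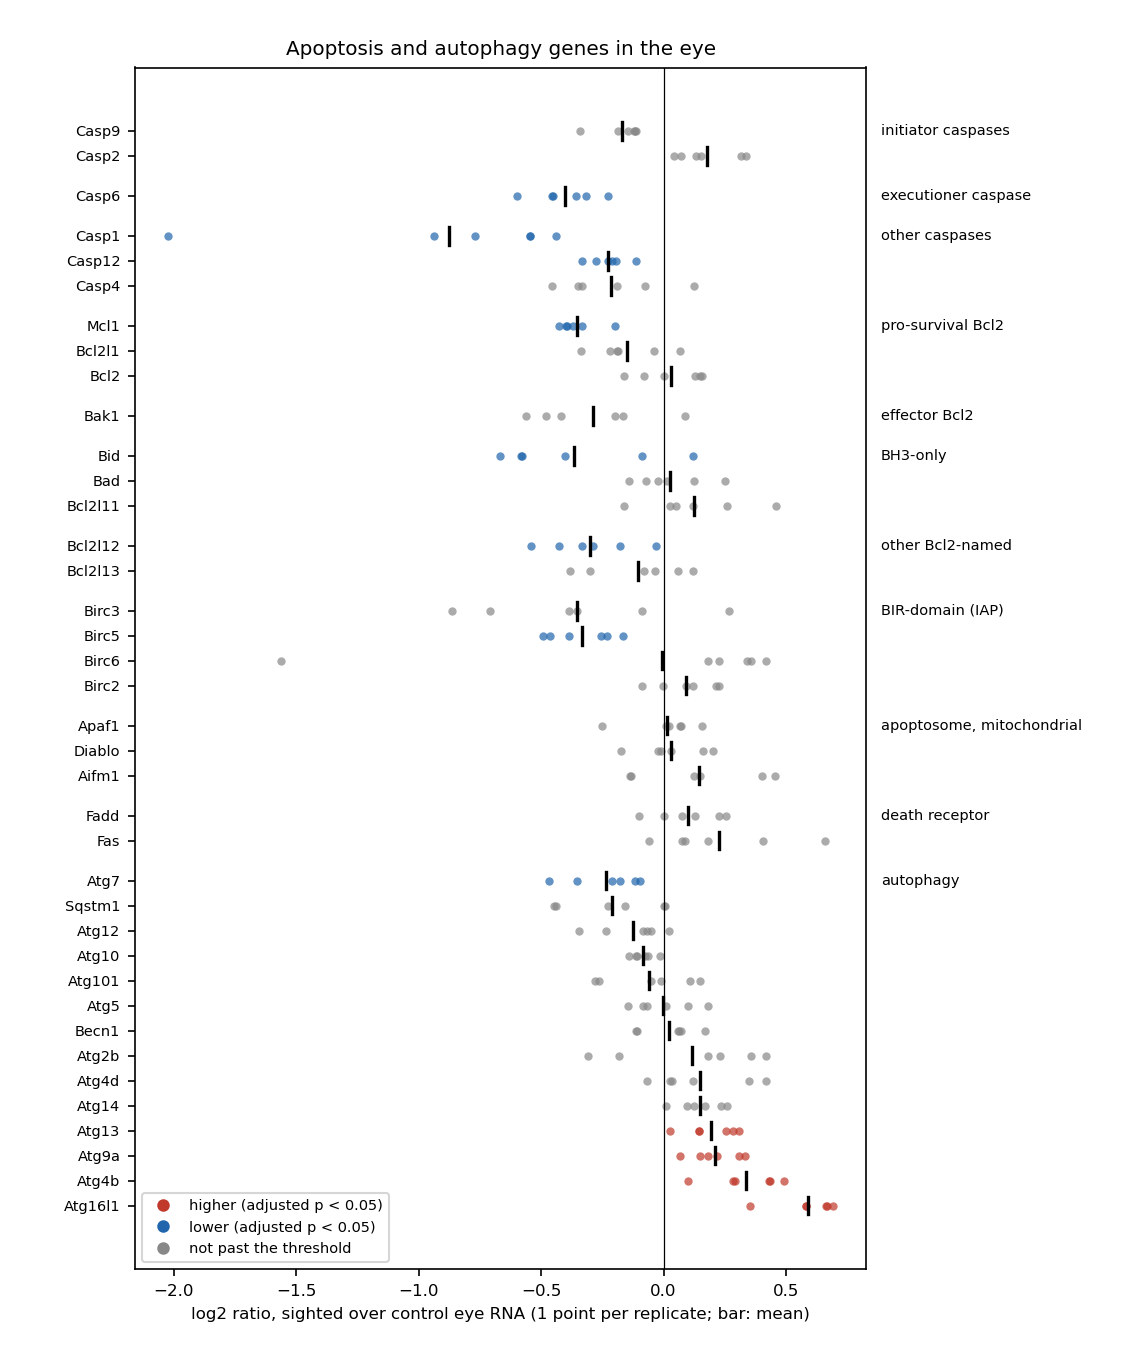
Log2 ratio of sighted over control eye RNA for the 38 members measured in the eye, grouped by role, with 1 point for each of 6 replicates and a bar at the mean. Red and blue mark members past the test, and the red ones are all autophagy genes while Casp1 has the lowest point, at -2.02.

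Among autophagy genes, Atg16l1 rose most. Its protein joins the Atg12 and Atg5 conjugate and sets the place where Atg8 proteins are attached to the membrane. Its replicates were 0.66, 0.35, 0.58, 0.69, 0.58 and 0.67, a mean of 0.59 ± 0.13 (SD, n = 6, limma adjusted p = 0.000357). All 6 replicates were above 0, with the second well below the others.

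Atg4b, the protease that trims Atg8 proteins before and after their lipid attachment, had a lowest replicate of 0.10, a median of 0.36 and a highest of 0.49. The mean was 0.34 ± 0.14 (SD, n = 6, limma adjusted p = 0.00731). Its 2 probes gave 0.25 ± 0.15 and 0.42 ± 0.15 (SD, n = 6 each), and both passed the test as single probes. Of the members with more than 1 measured probe, Atg4b and Mcl1 were the genes whose probes all passed.

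Atg9a, a membrane protein whose vesicles seed the growing autophagosome, spanned 0.07 to 0.33 with a median of 0.20, a mean of 0.21 ± 0.10 (SD, n = 6, limma adjusted p = 0.0322). Atg13, a subunit of the Ulk1 kinase complex that starts autophagy, spanned 0.03 to 0.31 with a median of 0.20. Its mean was 0.19 ± 0.11 (SD, n = 6, limma adjusted p = 0.0469). All replicates of these 2 genes lay above 0. With every array centred on its own median, Atg13 no longer passed (adjusted p = 0.0646), and it also lost its call when any 1 of the 6 replicates was left out. Atg9a was lost without replicate 1, 3, 5 or 6, and with single arrays and the pair as a random block (adjusted p = 0.0744).

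Atg7 was the autophagy member that fell. It encodes the E1-like enzyme that activates both Atg12 and the Atg8 proteins. Its replicates spanned -0.47 to -0.09 with a median of -0.19, and the mean was -0.24 ± 0.15 (SD, n = 6, limma adjusted p = 0.035). All 6 replicates were below 0, and the call was lost without replicate 1, 2, 3, 4 or 5. One probe gave -0.30 ± 0.21 (SD, n = 5) and passed, while the other gave -0.20 ± 0.16 (SD, n = 6) and did not.

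The other 9 autophagy members did not pass in the eye, with means between -0.21 for Sqstm1 and 0.15 for Atg14. Atg12, Atg10 and Atg101 were at -0.13, -0.09 and -0.06, and Atg2b and Atg4d at 0.12 and 0.15. Sqstm1, the p62 receptor that carries ubiquitin-tagged cargo into autophagosomes and is itself degraded there, spanned -0.45 to 0.01 (adjusted p = 0.0961). A single probe of its 3 passed, at -0.28 ± 0.17 (SD, n = 6), and with centred arrays the gene passed as well (-0.24 ± 0.14, n = 6, limma adjusted p = 0.0184). Atg14, the subunit that brings the lipid kinase complex to the forming membrane, had 1 probe that passed at 0.24 ± 0.16 and another at 0.06 ± 0.08 (SD, n = 6 each). Becn1, a partner in that complex, was at 0.02 ± 0.11 and Atg5 at 0.00 ± 0.12 (SD, n = 6 each), with replicates on both sides of 0.

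Caspases were lower or not past the test. Casp6, an executioner caspase that cleaves lamins, had the smallest p of the caspases. Its replicates spanned -0.60 to -0.23 with a median of -0.41, a mean of -0.40 ± 0.13 (SD, n = 6, limma adjusted p = 0.0026). All 6 lay below 0.

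Casp1, the inflammasome caspase that matures interleukin 1 beta, had replicates of -0.77, -0.94, -0.55, -0.44, -0.55 and -2.02. The mean was -0.88 ± 0.59 (SD, n = 6, limma adjusted p = 0.0114), and the sixth replicate stood far below the rest. Without that replicate the mean was -0.65 (adjusted p = 0.00223). Casp1 kept its call when any single replicate was left out, but not without both replicates 1 and 2 (-0.89, adjusted p = 0.0812), which stand apart for blood genes.

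Casp12, an inflammatory-group caspase of the endoplasmic reticulum, spanned -0.33 to -0.11 with a median of -0.22, a mean of -0.23 ± 0.07 (SD, n = 6, limma adjusted p = 0.0185). Every replicate was below 0, and the call was lost without replicate 1, 4 or 5, and with single arrays and the pair as a random block (adjusted p = 0.051). Casp4, which senses bacterial lipopolysaccharide inside the cell, averaged -0.21 ± 0.21 (SD, n = 6, adjusted p = 0.102), with 5 of 6 replicates below 0.

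The initiator caspases did not pass. Casp9, the caspase of the apoptosome, spanned -0.34 to -0.11 (mean -0.17 ± 0.09, SD, n = 6, limma adjusted p = 0.0612). All its replicates were below 0, and its 2 probes differed: -0.30 ± 0.12, which passed, and -0.04 ± 0.11 (SD, n = 6 each). Casp2, an initiator tied to genotoxic stress, spanned 0.04 to 0.34 (mean 0.18 ± 0.12, SD, n = 6, limma adjusted p = 0.0782).

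In the Bcl2 family, members that protect the mitochondrion and members that open it did not separate by direction. Mcl1, a short-lived pro-survival protein, spanned -0.43 to -0.20 with a median of -0.38. Its mean was -0.35 ± 0.08 (SD, n = 6, limma adjusted p = 0.00248), and both its probes passed, at -0.46 ± 0.13 and -0.25 ± 0.12 (SD, n = 6 each). No replicate reached 0. Of the other pro-survival members, Bcl2l1 (Bcl-xL) averaged -0.15 ± 0.14 over 5 probes, all with a negative mean, and Bcl2 averaged 0.03 ± 0.13 (SD, n = 6 each). Neither passed.

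Among the death-promoting members, Bid, which caspase cleavage turns into an activator of the pore proteins, spanned -0.67 to 0.12 with a median of -0.49. It averaged -0.37 ± 0.32 (SD, n = 6, limma adjusted p = 0.0443), and 5 of 6 replicates were below 0. Its call was lost without replicate 1, 3, 5 or 6 and with centred arrays (adjusted p = 0.0569). Bak1, a pore-forming effector, missed the threshold narrowly at -0.29 ± 0.24 (SD, n = 6, limma adjusted p = 0.05002) and passed with centred arrays at -0.32 ± 0.20 (SD, n = 6, adjusted p = 0.0157). Bcl2l11 (Bim) averaged 0.13 ± 0.21 and Bad 0.03 ± 0.14 (SD, n = 6 each), neither past the test. The 3 probes of Bad gave -0.21, 0.12 and 0.16.

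Bcl2l12, a Bcl2-named protein described as an inhibitor of effector caspases, spanned -0.54 to -0.03 with a median of -0.31. The mean was -0.30 ± 0.18 (SD, n = 6, limma adjusted p = 0.0212), and all replicates were below 0. Its call was lost without replicate 1, 5 or 6. One probe passed at -0.34 ± 0.11 (SD, n = 6) and the other did not at -0.25 ± 0.30 (SD, n = 5). Bcl2l13 averaged -0.10 ± 0.20 (SD, n = 6) with probes at -0.29 and 0.04.

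Of 4 BIR-domain members, Birc5 passed. Birc5 (survivin) is best known for its role in dividing cells. Its replicates spanned -0.49 to -0.16 with a median of -0.32, a mean of -0.33 ± 0.13 (SD, n = 6, limma adjusted p = 0.00695), all below 0. Its probes gave -0.39 ± 0.20, which passed, and -0.27 ± 0.23, which did not (SD, n = 6 each). Birc3, a ubiquitin ligase of tumour necrosis factor signalling, averaged -0.35 ± 0.41 (SD, n = 6, adjusted p = 0.101). Its close relative Birc2 averaged 0.09 ± 0.12 (SD, n = 6). Birc6, a large ubiquitin-conjugating enzyme, spanned 0.18 to 0.42 in 5 replicates and was at -1.56 in the second.

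The apoptosome and mitochondrial release genes stayed close to 0. Apaf1 was at 0.01 ± 0.14, Diablo at 0.03 ± 0.14 and Aifm1 at 0.14 ± 0.25 (SD, n = 6 each), and none passed. The 2 probes of Diablo, whose protein relieves caspases of IAP inhibition, gave -0.11 and 0.17. Fas averaged 0.23 ± 0.26 and its adaptor Fadd 0.10 ± 0.13 (SD, n = 6 each), neither past the test. The 3 Fas probes lay apart, at -0.02 ± 0.51, 0.15 ± 0.21 and 0.56 ± 0.25 (SD, n = 6 each), and the last of them passed as a single probe (limma adjusted p = 0.0036).

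Over all probes, 69 of the 73 were measured in the eye, of which 7 were higher and 11 lower as single probes. Of all single probes on the array, 27% passed in either direction. In 14 of the 24 genes with more than 1 measured probe all probe means had the same sign, and in 10 they did not. Beside Bad, Bcl2l13, Diablo and Fas these were Apaf1, Atg2b, Atg5, Atg10, Bcl2 and Fadd. Their probe means lay between -0.18 and 0.24, and 0 of their probes passed. Among the genes that passed, Atg13, Atg16l1, Atg9a, Bid, Casp1, Casp12 and Casp6 had 1 probe each, so their probes could not be compared. The Bok probe was not measured in enough replicates to be tested in the eye.

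**Figure D2:**
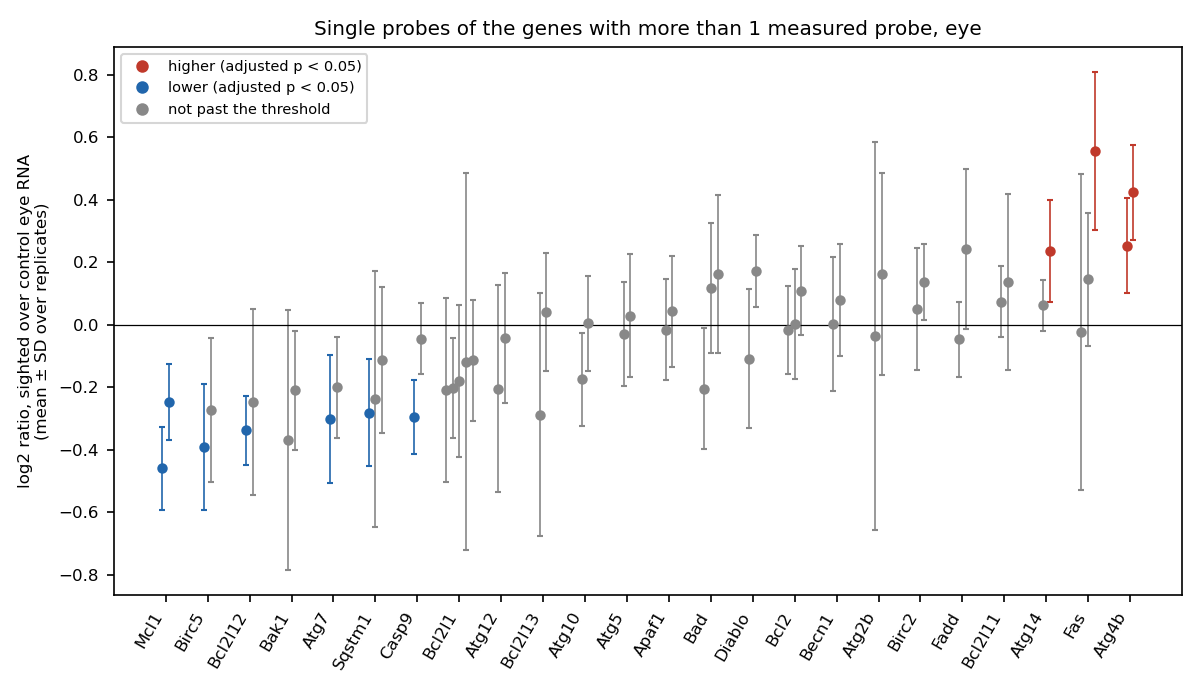
Mean log2 ratio of sighted over control eye RNA for each measured probe of the 24 genes with more than 1 of them, with the SD over replicates as bars. Both probes of Atg4b lie above 0 and both of Mcl1 below it, and all 4 pass, whereas the 3 probes of Fas span -0.02 to 0.56.

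The start regions of 4 members that moved in the eye are shown to set their sequence beside their values. They are Atg4b, which rose, and Atg7, Casp1 and Mcl1, which fell. The sequences are RefSeq's for GRCm38.p6 and run from 250 bases before to 50 after the annotated start, 5′ to 3′ on the strand of the gene. They lie at chr1:93754655-93754954 for Atg4b, chr6:114670846-114671145 for Atg7, chr9:5298267-5298566 for Casp1 and chr3:95658471-95658770 for Mcl1, all on the plus strand. Capitals mark matches to 4 motifs searched on both strands.
Atg4b: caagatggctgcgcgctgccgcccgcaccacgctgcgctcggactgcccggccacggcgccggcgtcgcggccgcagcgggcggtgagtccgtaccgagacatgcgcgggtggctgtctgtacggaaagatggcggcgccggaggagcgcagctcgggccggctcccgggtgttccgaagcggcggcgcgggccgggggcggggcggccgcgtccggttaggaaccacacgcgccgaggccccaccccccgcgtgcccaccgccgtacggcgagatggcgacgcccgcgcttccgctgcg
Atg7: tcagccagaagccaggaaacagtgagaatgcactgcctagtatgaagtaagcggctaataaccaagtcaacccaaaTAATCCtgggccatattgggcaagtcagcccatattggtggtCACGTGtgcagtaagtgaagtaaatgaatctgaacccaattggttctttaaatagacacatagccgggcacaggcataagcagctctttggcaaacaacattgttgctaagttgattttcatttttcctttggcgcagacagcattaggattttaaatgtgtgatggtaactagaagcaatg
Casp1: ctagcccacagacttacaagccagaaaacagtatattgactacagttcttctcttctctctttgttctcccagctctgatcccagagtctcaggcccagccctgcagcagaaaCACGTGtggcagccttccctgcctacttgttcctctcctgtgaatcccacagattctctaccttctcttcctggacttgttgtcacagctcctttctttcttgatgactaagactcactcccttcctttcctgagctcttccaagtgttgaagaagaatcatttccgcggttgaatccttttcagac
Mcl1: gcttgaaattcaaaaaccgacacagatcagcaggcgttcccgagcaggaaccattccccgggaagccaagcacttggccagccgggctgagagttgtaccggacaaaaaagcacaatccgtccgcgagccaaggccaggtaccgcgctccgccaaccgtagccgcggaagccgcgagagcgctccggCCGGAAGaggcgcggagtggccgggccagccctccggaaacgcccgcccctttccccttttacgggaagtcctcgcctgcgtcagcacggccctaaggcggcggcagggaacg
The motifs were CACGTG (the E-box that TFEB, a regulator of autophagy and lysosome genes, can bind), TAATCC (bound by the photoreceptor factor Crx), TATAAA and CCGGAAG (an Ets core). CACGTG reads the same on both strands, and no matches overlapped in the sequences shown. Of 32851 start regions in the table, 7.15% held CACGTG, 7.06% TAATCC, 13.62% TATAAA and 8.86% CCGGAAG. Of the 12 members past the test, 11 had an entry. CACGTG was in those of Atg7, at base 119, and Casp1, at base 114. TAATCC was in that of Atg7, at base 77, TATAAA in that of Bcl2l12 and CCGGAAG in that of Mcl1, at base 188. The Atg4b region held 0 matches. A match is a run of letters and not a measured binding site. Atg16l1 was the member without an entry.

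The dyes pulled apart the values as deposited. Of the 12 members past the test in the eye, 7 had the same sign in both dye orientations as deposited and 12 did with each array centred on its median. Over all 38 measured members the counts were 10 and 27. Atg16l1 was at 0.87 with sighted RNA in Cy5 and 0.31 in Cy3 as deposited, and at 0.59 and 0.52 with centred arrays. Mcl1 was at 0.06 and -0.77 as deposited and at -0.22 and -0.56 with centred arrays. Atg9a kept its sign on centred arrays only narrowly, at 0.35 and 0.01. With centred arrays 15 members passed, 3 higher and 12 lower. Of the 12 calls above, 10 were among them, Atg13 and Bid were not, and Bak1, Bcl2l1, Casp4, Casp9 and Sqstm1 were added, all lower.

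**Figure D3:**
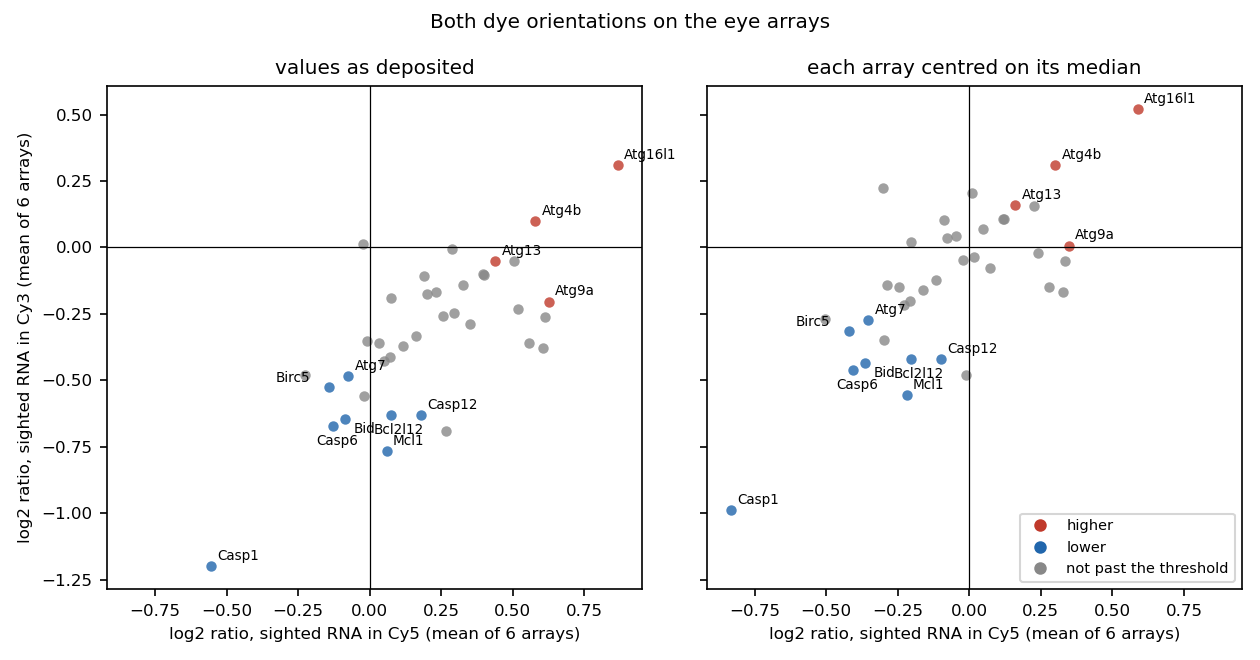
Mean log2 ratio of sighted over control eye RNA with sighted RNA in Cy5 (horizontal, 6 arrays) and in Cy3 (vertical, 6 arrays) for each measured member, as deposited on the left and with centred arrays on the right. With centred arrays all 12 members past the test lie in the lower left or upper right quadrant, where 7 of them lay as deposited.

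An eye sample holds several tissues, and in such bulk RNA fewer cells of a type and less RNA per cell cannot be told apart. In the eye, 10 of 10 rod genes were higher in sighted mice, the genes that set the direction. Immune cell genes were lower in 12 of 20 (replicate medians -0.64 to -0.24), surface epithelium genes in 14 of 19 (-1.34 to -0.53) and skeletal muscle genes in 15 of 16, the other being higher (-1.13 to -0.48). Fat genes were lower in 4 of 8 (-0.65 to -0.17) and blood genes in 4 of 4, with replicates 1 and 2 at -2.25 and -2.40 and the others between -1.39 and -0.81. Lens genes were higher in 11 of 12 and lower in 1, with medians of 0.06 and 0.15 in replicates 1 and 5 and between 0.74 and 0.89 in the others. Krt16, on the epithelium list, ran close to the blood gene Hba-a1 in each replicate. The 2 genes were at -3.12 and -3.29 in replicate 1 and at -0.92 and -0.91 in replicate 5. Of all genes tested in the eye, 15.9% were higher and 11% lower. The part of the tissues named above in the members' values was not tested. Without replicates 1 and 2 of the eye, 6 members passed, 3 higher and 3 lower. Of the 12 calls, Atg16l1, Atg4b, Birc5, Casp6 and Mcl1 remained both there and when any 1 replicate was left out. Of these, Mcl1 lost its call with every array on its own (adjusted p = 0.0735). As deposited, none of the 12 calls held in both single-dye fits. Atg16l1 and Atg4b were lost with sighted RNA in Cy3 only, and Birc5, Casp6 and Mcl1 with Cy5 only. With centred arrays, Birc5 was lost in the Cy3 fit.

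Among other genes of the 2 pathways, Ei24, Faim and Xiap rose furthest in the eye. Both lists of other genes were chosen with earlier results of these data known. Of 34 other apoptosis genes tested, 9 were higher and 6 lower (44.1% in all), with a median of -0.03. Of all genes tested in the eye, 26.8% passed, 15.9% higher and 11% lower. Ei24, an endoplasmic reticulum protein induced by p53 that also takes part in autophagy, averaged 3.09 ± 0.15 (SD, n = 6, limma adjusted p = 5.86e-08). Its replicates spanned 2.88 to 3.27. Faim, an inhibitor of Fas-induced apoptosis, averaged 2.47 ± 0.33 (SD, n = 6, limma adjusted p = 2.78e-06). Xiap, the caspase-inhibiting member of the IAP family whose symbol falls outside the Birc rule, averaged 1.71 ± 0.18 (SD, n = 6, limma adjusted p = 2.03e-06). All replicates of these 3 genes lay above every replicate of every member, and each rests on 1 probe.

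The falls among these genes were led by Tnfrsf1a, the main receptor of tumour necrosis factor, at -0.70 ± 0.09 (SD, n = 6, limma adjusted p = 8.59e-05). Its replicates spanned -0.76 to -0.52. Cidec, a lipid droplet protein that is also on the fat list, was at -0.58 ± 0.23, and Lmna, the lamin that caspase 6 cleaves, at -0.51 ± 0.15 (SD, n = 6 each).

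Of 43 other autophagy genes tested, 10 were higher and 3 lower, with a median of 0.09. That is 30.2%, near the 26.8% of all genes tested in the eye. The largest rises were those of Hif1a at 0.77 ± 0.41, of the cargo receptor Tax1bp1 at 0.60 ± 0.11 and of the Atg8 family gene Gabarapl1 at 0.38 ± 0.19 (SD, n = 6 each). Hif1a, the oxygen-regulated transcription factor, had 1.59 in the fourth replicate and 0.48 to 0.73 in the others. Both probes of Tax1bp1 and all 3 of Gabarapl1 passed on their own. The 3 genes that fell were the lysosomal protease gene Ctsl at -0.36 ± 0.11, the lysosomal membrane gene Lamp2 at -0.35 ± 0.15 and the fusion gene Stx17 at -0.31 ± 0.16 (SD, n = 6 each). Of 3 Stx17 probes 1 passed.

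**Figure D4:**
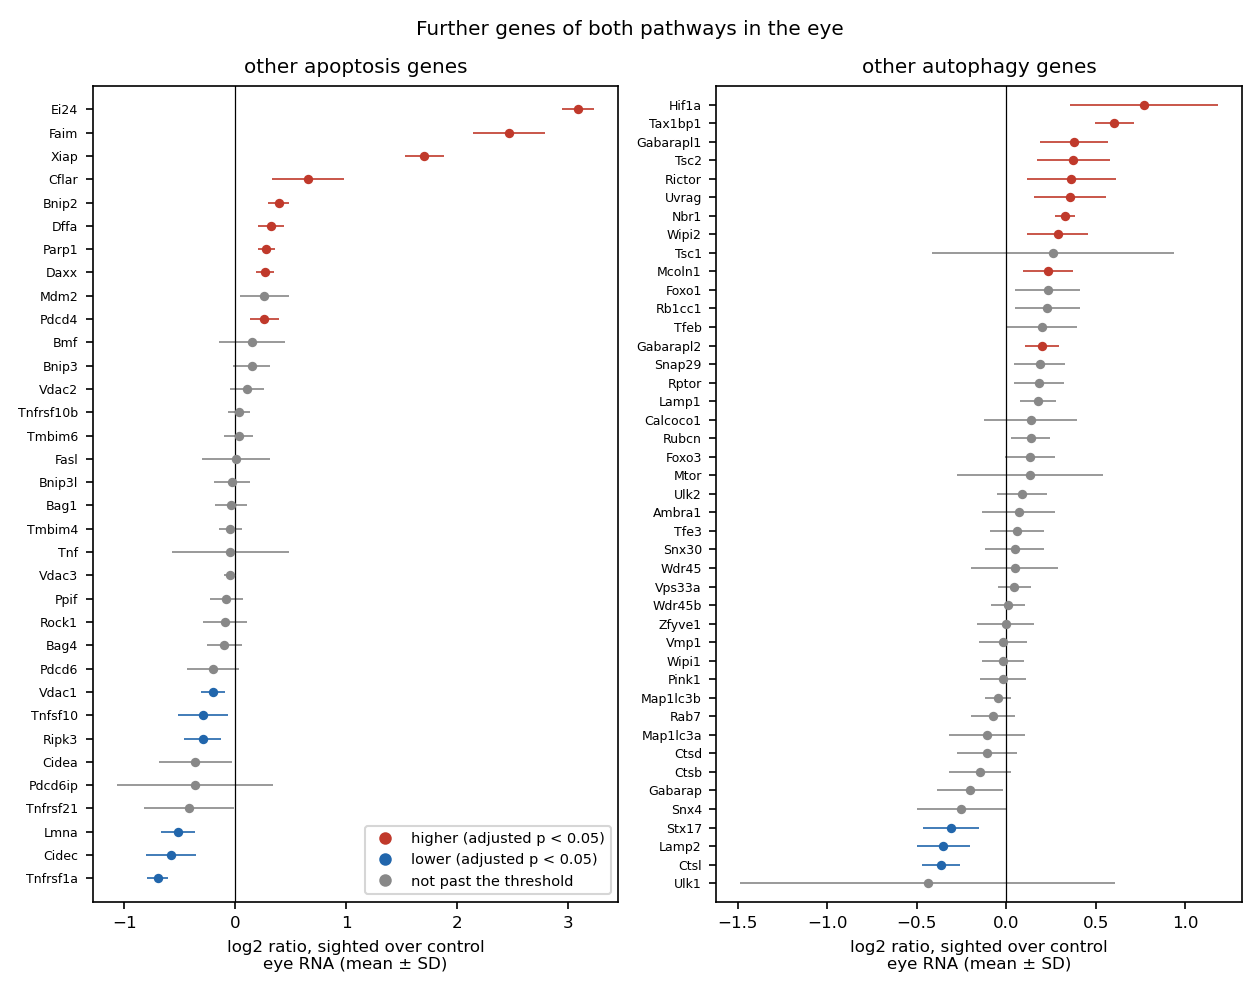
Mean log2 ratio of sighted over control eye RNA with the SD over 6 replicates for further apoptosis genes (left) and autophagy genes (right) that are not members. Ei24, Faim and Xiap lie between 1.71 and 3.09, apart from all others, and the horizontal scales of the panels differ.

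In the brain no member differed past the threshold. All 37 members measured there had a limma adjusted p of 0.959 or more, and 0 had an unadjusted p under 0.05. Of all 16112 genes 1 passed (0.00621%), and 657 had an unadjusted p under 0.05. Member means lay between -0.18 and 0.16. The smallest p was that of Atg14, with replicates of -0.05, 0.07, 0.02, -0.20, -0.43 and -0.35 and a mean of -0.16 ± 0.21 (SD, n = 6, limma adjusted p = 0.959). Replicates lay on both sides of 0. Next came Casp12 at 0.14 ± 0.20, Birc5 at -0.11 ± 0.13, Atg4b at -0.09 ± 0.08 and Casp6 at -0.12 ± 0.22 (SD, n = 6 each). Aifm1 and Casp2 were not measured in enough replicates of the brain.

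In the heart no member passed either. Of 33 measured members 5 had an unadjusted p under 0.05, as did 1042 of all 12755 genes, of which 0 (0%) passed limma's test after adjustment. The members' adjusted p lay between 0.568 and 0.958. The median of the members' SDs was 0.42 in heart, against 0.21 in brain and 0.14 in eye. Array 7 of the heart, which belongs to replicate 4, lacked 61.58% of its values.

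Sqstm1 had the smallest p of the heart, with 0.75, 0.10, 0.92 and 0.87 in its replicates and a mean of 0.66 ± 0.38 (SD, n = 4, limma adjusted p = 0.568). All lay above 0, the second close to it. Fadd averaged -0.62 ± 0.45 (SD, n = 4), with replicate 3 at -0.01. Aifm1 averaged -0.56 ± 0.28 (SD, n = 3). Birc2 averaged 0.35 ± 0.06 and Casp9 0.33 ± 0.14 (SD, n = 4 each), and neither passed. Atg16l1, Becn1, Bid, Birc3, Birc6 and Casp2 were not measured in enough replicates of the heart.

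The organs were then set against each other to ask whether a member's ratio itself differed. The eye pool came from other control mice than the brain and heart pools. Organ and control animals therefore cannot be told apart in these differences. Of 36 members measured in eye and brain, 5 differed, 13.9% against 18.4% of all 15499 genes, so the share was below the background. Of all genes 11.3% were higher in eye and 7.14% lower, and of the members 3 and 2. Atg16l1 was at 0.59 in eye and 0.01 in brain, a difference of 0.57 ± 0.09 (SE, limma adjusted p = 0.00017). Atg4b was at 0.34 in eye and -0.09 in brain, a difference of 0.42 ± 0.09 (SE, adjusted p = 0.00272). Atg14 was at 0.15 in eye and -0.16 in brain, a difference of 0.31 ± 0.10 (SE, adjusted p = 0.0488). It had passed in neither organ alone, and its 2 brain probes lay on opposite sides of 0, at -0.38 and 0.06. The call was lost in 12 of 16 other settings, centred arrays (adjusted p = 0.069) and the loss of any 1 of 9 replicates among them, with an adjusted p of up to 0.273.

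Casp1 and Casp12 differed the other way. Casp1 was at -0.88 in eye and 0.05 in brain, a difference of -0.92 ± 0.22 (SE, limma adjusted p = 0.0104). Casp12 was at -0.23 in eye and 0.14 in brain, a difference of -0.37 ± 0.10 (SE, adjusted p = 0.0165). Casp6, Mcl1 and Birc5 passed in the eye, yet their differences from brain, -0.28 ± 0.11, -0.26 ± 0.10 and -0.23 ± 0.09 (SE), did not (adjusted p = 0.0914, 0.0782 and 0.103).

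**Figure D5:**
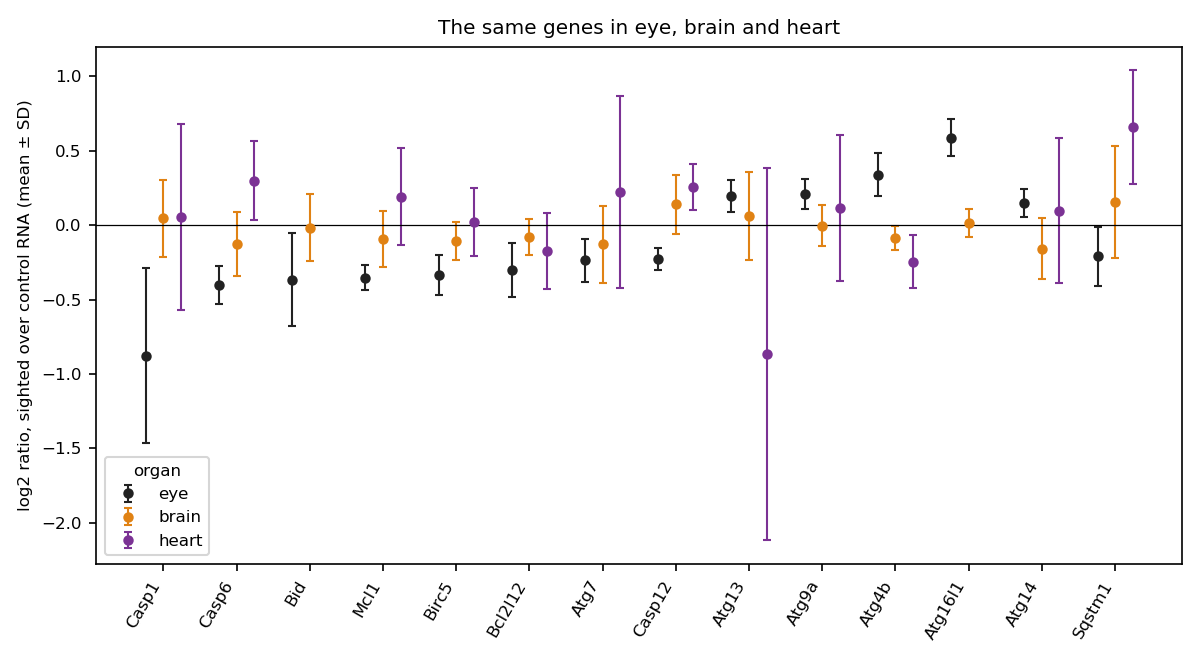
Mean log2 ratio of sighted over control RNA, with the SD over replicates, in eye (6), brain (6) and heart (4, or 3 where a gene was missing) for the 12 members past the test in eye and for Atg14 and Sqstm1. Eye and brain stand apart for Casp1, Atg4b and Atg16l1, and heart bars are the widest for most genes.

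Of 32 members measured in eye and heart, 1 differed, 3.1% against 4.64% of all 12547 genes (2.61% higher in eye, 2.02% lower). It was Sqstm1, at -0.21 in eye and 0.66 in heart, a difference of -0.87 ± 0.20 (SE, limma adjusted p = 0.0485). The call was lost without any 1 heart replicate and without eye replicate 2 or 5, the adjusted p then lying between 0.0569 and 0.253. Casp6 differed by -0.70 ± 0.17, Atg4b by 0.58 ± 0.15, Casp9 by -0.50 ± 0.15 and Bak1 by -0.63 ± 0.20 (SE), and these did not pass (adjusted p = 0.0577, 0.07, 0.0936 and 0.107).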

How the data were processed

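Per the labels' protocols, total RNA of each organ was turned into cDNA with an indirect Cy3 or Cy5 label. The authors deposited a log2 value per probe and array, the ratio of Cy5 over Cy3, as the sign on arrays of exchanged dye shows. How the arrays were scanned, corrected and normalized is not given in the sources used here, and their scale stays unknown. Centring differed: medians were -0.061 to 0.535 on eye arrays, 0.002 to 0.1 on brain arrays and 0.034 to 0.217 on heart arrays. A repeated top value, 16.61 on every eye array, was treated as missing (4170 values in all). It is offset by 1 constant per array in brain and heart, which matches the array's most frequent value within 0.002 on 29 of 31 arrays with a ceiling (0 on eye arrays).

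The sign was turned where Cy3 marked the sighted RNA. Brain array 3 has Cy5 on both channels in its label; its sighted RNA was taken as Cy5. Brain array 5 has a source given just as sighted. Pairs of consecutive arrays of opposite dye were averaged for each probe, both arrays being needed, and probes of a gene were averaged. The pairs were read from the array numbers alone. A gene could miss 1 replicate. Of 20794 probes, 12771 had 1 gene symbol, 0 several and 8023 none, and a RefSeq table of GRCm38.p6 changed 0 symbols. All 32 columns were mapped to samples.

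Each organ was fitted over all genes with limma 3.58.1 in R 4.3.3, mean against 0, two-sided, with Benjamini-Hochberg adjustment at 0.05. Organ differences combined the moderated spread of each organ. The scripts were tested on simulated data with known changes. False calls made up 6.4% of calls in eye, 8.4% in brain and 0% in heart. They made up 9.4% for eye minus brain and 16.3% for eye minus heart. Of genes changed by 1 log2 unit, 84% were recovered in eye, 82% in brain and 14% in heart. Of those changed by 0.25, 2% were recovered in eye, 14% in brain and 0% in heart. In each organ 50 genes were changed at each size, among 15874 genes in eye. In the eye data 26.8% of genes passed, so the adjustment was stricter in the simulation. The recovered shares are therefore not the power of the eye fit.

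The members and the lists (other apoptosis, other autophagy, rod, immune, surface epithelium, skeletal muscle, fat, blood and lens genes) were chosen with earlier results of these data known. Named genes are the members past the test, the 2 of smallest p per role in eye, the 5 of smallest p in an organ or difference with fewer calls, and of the other 2 pathway lists the 3 largest changes each way among calls. Further members are named to account for all. Alternatives were single arrays (plain, or with pairs as a random block), arrays centred or also scaled, kept ceiling values, genes with every replicate, robust moderation, a single dye, leaving out the 20% most variable genes, single probes, a shared spread and each replicate left out. After seeing the data, fits without probes near background, with probes averaged first, with a single dye on centred arrays and without eye replicates 1 and 2 were added.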

Additional observations from a re-analysis of the deposited data

Results flagged for a closer look

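Of 100 member values with at least 4 replicates, 13 had a replicate standing apart from the others by Dixon's test. Chance flags about 1 in 20 such groups.

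In the eye these were Birc6, at -1.56 in replicate 2 and 0.18 to 0.42 in the others, and Casp1, at -2.02 in replicate 6 and -0.94 to -0.44 in the others. Atg16l1 was at 0.35 in replicate 2 and 0.58 to 0.69 in the others, Apaf1 at -0.25 in replicate 2 and 0.01 to 0.16 in the others, and Casp9 at -0.34 in replicate 1 and -0.19 to -0.11 in the others. In the brain, Bcl2l12 was at -0.31 in replicate 6, Atg5 at 0.23 in replicate 5 and Atg12 at -0.058 in replicate 3, where the other replicates of Atg12 lay between 0.01 and 0.02. In the heart, replicate 4 stood apart for Bad at 3.29, Casp4 at 2.27, Bcl2l1 at 1.57 and Casp6 at -0.10. Replicate 1 stood apart for Atg14 at 0.82. In replicate 4, Bad rested on a single probe of its 3 and Bcl2l1 on a single probe of its 5. In replicate 1, Atg14 averaged probes at 1.94 and -0.31, and the first had no value in the other replicates. Replicate 4 of the heart holds the array that lacks 61.58% of its values. Its part in these values was not tested.

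The ratio of sighted over control RNA differed between eye and brain for 5 members by the test of the difference. Eye minus brain was 0.57 for Atg16l1, 0.42 for Atg4b, 0.31 for Atg14, -0.92 for Casp1 and -0.37 for Casp12. The call of Atg14 was lost in 12 of 16 other settings. Eye minus heart was -0.87 for Sqstm1. In both comparisons the control pools of the organs came from different mice.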

How the results depend on the processing

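The 12 eye calls became 6 with every array on its own and 13 with the pair as a random block (where Atg9a and Casp12 were lost). That block fit held no dye term, and its correlation within pairs was -0.47. A negative correlation narrows the standard error, so its count is no independent check. The eye calls became 15 with centred arrays, 14 with centred and scaled arrays and 11 with ceiling values kept. Without a replicate they ranged from 6 to 12, with 6 lacking replicate 1 and 7 lacking replicate 5. Without both replicates 1 and 2 there were 6, a setting added after seeing the data. As deposited, 13 members passed with sighted RNA in Cy5, all higher, and 13 in Cy3, all lower. With centred arrays these were 10 (5 higher, 5 lower) and 13 (2 higher, 11 lower). The heart count was 0 in every setting run. The brain count was 0 except 4 with Cy5, 4 with Cy3, 3 with Cy5 centred and 2 with Cy3 centred.

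The 5 eye minus brain calls became 3 with a shared spread and 2 with the replicate block, and ranged from 4 to 6 without a replicate. The eye minus heart call became 11 with a shared spread, 9 with the replicate block and 5 with a value in every replicate, and ranged from 0 to 2 without a replicate. Same-numbered replicates of different organs correlated between -0.048 and 0.053, so the number was not used as a pairing. The labels do not say whether organs share animals. With each dye's mean removed, arrays averaged within an organ correlated as weakly in brain (mean 0.0056) and heart (-0.038), with 0.0997 in eye. Casp12 lost its eye minus brain call with the block (adjusted p = 0.0743).

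As deposited, 10 of 38 eye members had the same sign in both dyes, and 27 with centred arrays. Of those chosen by the naming rule, signs turned in the eye with Cy3 only for Aifm1 (-0.23), Atg13 (-0.051), Atg9a (-0.20), Bcl2l11 (-0.11), Casp2 (-0.26), Diablo (-0.17), Fadd (-0.36) and Fas (-0.053). They turned with Cy5 only for Bcl2l12 (0.073), Bcl2l13 (0.12), Casp12 (0.18), Casp9 (0.072) and Mcl1 (0.059). With centred arrays they turned in Cy3 for Aifm1 (-0.020), Casp2 (-0.05) and Fadd (-0.15) and in Cy5 for Bcl2l11 (-0.088) and Diablo (-0.047). Diablo also turned with all arrays centred (-0.0026) or centred and scaled (-0.0079), and without a replicate it ranged from -0.0034 to 0.072. In brain they turned for Casp12 in Cy3 (-0.59, centred -0.53) and Casp6 in Cy5 (0.42, centred 0.37), in heart for Aifm1 in Cy3 (0.073, centred 0.20) and Birc2 in Cy5 (-0.060, centred -0.17). The cause was not tested. No intensities were used, so low signal was judged from the form of the ratios. With the array's constant removed, a value within 0.0011 of a log2 ratio of whole numbers up to 10 counted as dim. Values at the ceiling counted as dim too. By this rule at least 6 of 12 eye arrays were missing or dim for 5 member probes, and 4 of 8 heart arrays for 19.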
